A study of Homo sapiens with 12 samples.

Results

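The genes described here are *CD274*, which encodes PD-L1, and 6 other genes of chromosome band 9p24, picked out by symbol from a deposited RNA-seq table of 45416 genes. They are *PDCD1LG2*, which encodes PD-L2, the antisense lncRNA *AL162253.2*, and the nearby genes *PLGRKT*, *AK3*, *CDC37L1* and *RCL1*. All 7 were in the table, all had reads in each of the 12 libraries, and all 7 passed the filter on low counts. Only *CD274* was targeted.

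The cells were U251, an established human glioblastoma line. They had been transfected with a control siRNA (siNC) or with 1 of 2 siRNAs directed at *PD-L1* (siPDL1-1 and siPDL1-2), and were then left unstimulated or given interferon gamma (IFNγ) at 100 U/ml. Each of the 6 groups held 2 libraries. Every group was the same line and every group carried an siRNA, so there were no untransfected cells. The methods describe the libraries as coming from independent experiments, and the labels do not say which libraries shared one. With 2 libraries a group, the p-values measure the spread between these libraries. The work is bulk RNA-seq, in which fewer cells expressing a gene and less RNA per cell cannot be told apart.

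PD-L1 and PD-L2 are membrane ligands of PD-1, an inhibitory receptor of T cells, and tumor cells that carry them can dampen T cell activity. IFNγ signals through its receptor and induces the transcription factor IRF1, which drives transcription of the PD-L1 gene. The genes for PD-L1 and PD-L2 lie next to each other on chromosome 9, and lncRNAs are also transcribed from this locus. An siRNA acts in a different way, by guiding cleavage of the mRNA that it matches.

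Expression is given as the normalized CPM (reads of a gene scaled to library size) that the authors deposited, and the number of reads on genes ranged from 17101069 to 55657393 per library. Differences are log2 fold changes of CPM plus a pseudocount of 1 from limma, and a gene was called at a false discovery rate (FDR) under 0.01 with a fold change over 1.5, which is 0.585 on the log2 scale. Because of the pseudocount, fold changes of genes at a few CPM are smaller than the ratios of their CPM. Of 8 genes fixed as markers of a glioma line, all 8 averaged at least 1 CPM, with *VIM* between 3140 and 3970 CPM, while the astrocyte genes *GFAP* (1.92 to 7.25 CPM) and *S100B* (2.40 to 5.92 CPM) were low. Of 6 immune cell markers, 0 averaged 1 CPM, and their summed level was between 0.0979 and 0.899 CPM in every library. The endothelial, neuronal and epithelial lists, of 3 genes each, had 1, 2 and 0 genes averaging at least 1 CPM.

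*CD274* (ENSG00000120217) lies at chr9:5450503-5470566 on the plus strand of GRCh38 and has 5 annotated transcripts. The targeted gene was read out in every library. In siNC cells it was at 4.60 and 4.91 CPM without stimulation and at 71.2 and 76.0 CPM after IFNγ. In siPDL1-1 cells it was at 2.67 and 2.73 CPM without stimulation and at 61.0 and 66.7 CPM after IFNγ. In siPDL1-2 cells it was at 3.57 and 3.45 CPM without stimulation and at 37.5 and 35.0 CPM after IFNγ. No library of an siRNA group overlapped the siNC libraries of the same stimulation, and both knockdown groups were on the lower side. The lowest level without stimulation was with siPDL1-1 and the lowest level after IFNγ was with siPDL1-2. These values rest on 92 to 194 reads per unstimulated library and 640 to 3801 reads per stimulated library.

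The stretch upstream of *CD274* is shown because it holds letters that IRF proteins are known to recognise. It spans chr9:5450292-5450502 of GRCh38.p14 on the plus strand and ends 1 base before the start of the gene given above. The sequence is RefSeq's. The RefSeq start site of *CD274*, chr9:5450542, lies further downstream, and the distances below count from it. The capitals mark 16 bases that hold 2 overlapping matches to a pair of GAAA boxes, read on the opposite strand.

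CD274 upstream: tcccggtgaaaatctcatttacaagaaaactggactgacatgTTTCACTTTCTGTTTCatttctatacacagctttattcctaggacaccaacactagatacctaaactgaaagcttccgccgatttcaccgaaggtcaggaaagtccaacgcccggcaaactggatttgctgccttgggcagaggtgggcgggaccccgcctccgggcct

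The pair of boxes was searched as GAAANNGAAA on both strands of windows from 250 bases before to 50 bases after each RefSeq start. The 2 matches at *CD274* began 208 and 202 bases before its RefSeq start and overlapped each other. At least 1 match was present in 3.57% of the 35116 windows of all genes, and at least 2 matches in 0.259%. The gamma-activated site, a palindrome known from genes that IFNγ induces, was searched as TTCNNNGAA and matched once in the *CD274* window, 125 bases before the start. It was present in 7.66% of all windows. Windows were available for 4 of the 7 genes. *PLGRKT*, *RCL1* and 1 of the 2 windows of *AK3* held neither set of letters, and the other window of *AK3* held TTCNNNGAA once, 23 bases before its start. *PDCD1LG2*, *AL162253.2* and *CDC37L1* had no window. A match of letters is a description and was not tested as a binding site.

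To ask how IFNγ altered the locus, stimulated and unstimulated cells were compared within each siRNA group. *CD274*, *PDCD1LG2* and *AL162253.2* were higher after IFNγ with siNC, with siPDL1-1 and with siPDL1-2. The other 4 genes were not called in any of these comparisons, although *PLGRKT* had an FDR under 0.01 in all 3. In siNC cells, 3 of the 7 genes were called, all upward, against 8.12% of all 17982 genes tested. The same 3 genes were called upward in siPDL1-1 cells, where 6.87% of all genes were called, and in siPDL1-2 cells, where 5.27% were called.

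In siNC cells, *CD274* went from 4.76 ± 0.217 to 73.6 ± 3.43 CPM (mean ± SD, n = 2 each). The difference was 3.70 on the log2 scale (95% interval 3.53 to 3.86, FDR = 6.24e-15). It ranked 41st by fold change among the 1200 genes that IFNγ raised in these cells. With siPDL1-1 the change was 4.13 on the log2 scale (FDR = 1.03e-15) and with siPDL1-2 it was 3.05 (FDR = 6.73e-14). As ratios of mean CPM, without a pseudocount, these increases were 15.5-fold, 23.6-fold and 10.3-fold.

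*PDCD1LG2* (ENSG00000197646) starts 60.0 kb downstream of the start of *CD274*, at chr9:5510531-5571282 on the plus strand. It was at 1.37 and 1.57 CPM in unstimulated siNC cells and at 19.8 and 19.1 CPM after IFNγ. With siPDL1-1 it was at 1.07 and 1.18 CPM before and at 20.5 and 20.2 CPM after, and with siPDL1-2 at 1.65 and 1.53 CPM before and at 18.2 and 16.3 CPM after. All 6 stimulated libraries lay far above all 6 unstimulated ones. On the log2 scale the increase was 3.05 for siNC (FDR = 1.24e-12), 3.33 for siPDL1-1 (FDR = 2.68e-13) and 2.82 for siPDL1-2 (FDR = 4.10e-12).

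*AL162253.2* (ENSG00000286162) is annotated as a lncRNA on the minus strand, at chr9:5457477-5629748, and its span covers the whole of *PDCD1LG2* and 13090 bases of *CD274*. Reads were counted without regard to strand. Its annotated exons share 0 bases with those of *CD274* or *PDCD1LG2*, so the 3 genes were counted on separate exons, and unspliced reads of the overlap were not examined.

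The level of *AL162253.2* in siNC cells was 1.91 and 1.49 CPM without stimulation and 3.95 and 4.27 CPM after IFNγ. With siPDL1-1 it was 2.00 and 1.53 CPM before and 5.45 and 6.12 CPM after. With siPDL1-2 it was 2.32 and 1.86 CPM before and 4.05 and 3.57 CPM after. Stimulated libraries were higher than unstimulated libraries in each siRNA group, with no overlap, but the rise was smaller than for either ligand. On the log2 scale the increase was 0.92 for siNC (FDR = 5.18e-05), 1.30 for siPDL1-1 (FDR = 1.89e-06) and 0.64 for siPDL1-2 (FDR = 0.00212). The call with siPDL1-2 did not hold with DESeq2 on the recovered reads (0.85, FDR = 0.0107). It was also lost without siPDL1-2 replicate 2 (0.53, FDR = 0.0391) and without stimulated siPDL1-2 replicate 1 (0.57, FDR = 0.0219).

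**Figure D1:**
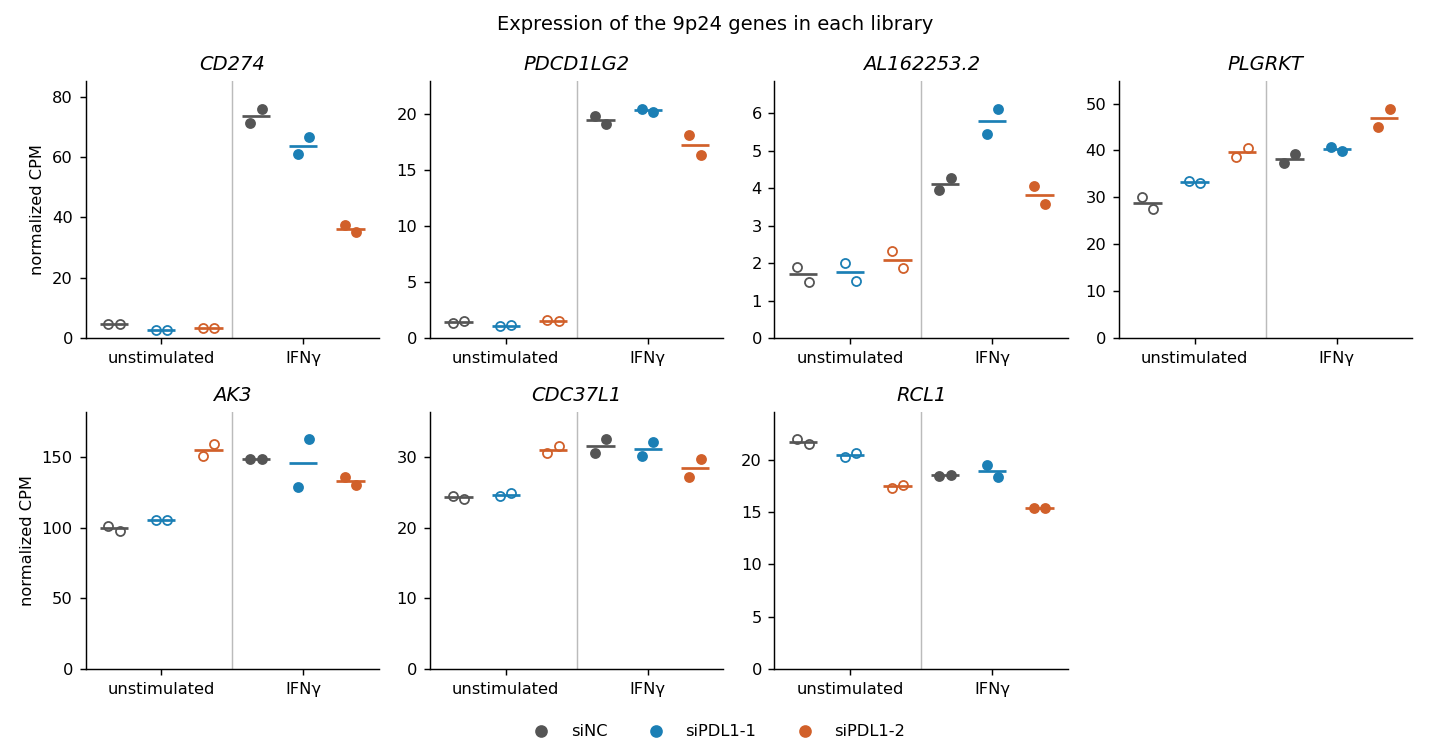
Normalized CPM of each of the 7 genes in the 12 libraries, with 1 point per library and a line at the mean of the 2 libraries of a group. Open points are unstimulated, filled points were given IFNγ, the color gives the siRNA, and each vertical axis starts at 0 with its own scale. *CD274* and *PDCD1LG2* rise from below 5 CPM to between 16.3 and 76.0 CPM, while *PLGRKT*, *AK3*, *CDC37L1* and *RCL1* stay within a narrower range.

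*PLGRKT* (ENSG00000107020), which encodes a plasminogen receptor, lies just upstream of *CD274* on the minus strand, at chr9:5357971-5437925. In siNC cells it was at 30.0 and 27.5 CPM without stimulation and at 37.3 and 39.2 CPM after IFNγ, without overlap. The differences of 0.40 for siNC (FDR = 1.19e-04), 0.27 for siPDL1-1 (FDR = 0.00323) and 0.24 for siPDL1-2 (FDR = 0.00913) on the log2 scale were all below the fold change threshold.

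*AK3* (ENSG00000147853, chr9:4709556-4742043, minus strand) encodes a mitochondrial adenylate kinase that uses GTP, and *CDC37L1* (ENSG00000106993, chr9:4679559-4708399, plus strand) encodes a cochaperone of HSP90. They are adjacent and lie at -740.9 and -770.9 kb from the start of *CD274*. In siNC cells, *AK3* went from 102 and 97.8 CPM to 149 and 149 CPM with IFNγ, a log2 fold change of 0.57 (FDR = 1.03e-04) just under the threshold for a call. In siPDL1-2 cells it went from 150 and 159 CPM to 136 and 130 CPM, a log2 fold change of -0.22 (FDR = 0.0581). *CDC37L1* had the same signs, with 0.36 in siNC cells (FDR = 3.65e-04) and -0.12 in siPDL1-2 cells (FDR = 0.170).

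With siPDL1-1, *AK3* was at 106 and 106 CPM before IFNγ and at 129 and 162 CPM after. The 2 stimulated libraries were further apart than in any other group (SD 23.6 CPM), and the log2 fold change of 0.45 (FDR = 7.84e-04) was 0.29 or 0.62 when 1 or the other stimulated library was left out. Without stimulated siPDL1-1 replicate 1 it was called (FDR = 6.35e-08), and so was the IFNγ effect in siNC cells without siNC replicate 1 (0.60, FDR = 9.16e-04). At its 5′ end *AK3* has 131 exon bases in common with the oppositely oriented *AL353151.2*, whose mean was 0.600 CPM, against 131 CPM for *AK3*.

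*RCL1* (ENSG00000120158, chr9:4792944-4885917, plus strand), which encodes a nucleolar protein of ribosome biogenesis, was the only one of the 7 with a negative log2 fold change in siNC cells. It was at 21.9 and 21.5 CPM without stimulation and at 18.5 and 18.6 CPM after IFNγ (-0.22, FDR = 0.0141). The values for siPDL1-1 (-0.11, FDR = 0.219) and siPDL1-2 (-0.17, FDR = 0.0634) did not pass the test.

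**Figure D2:**
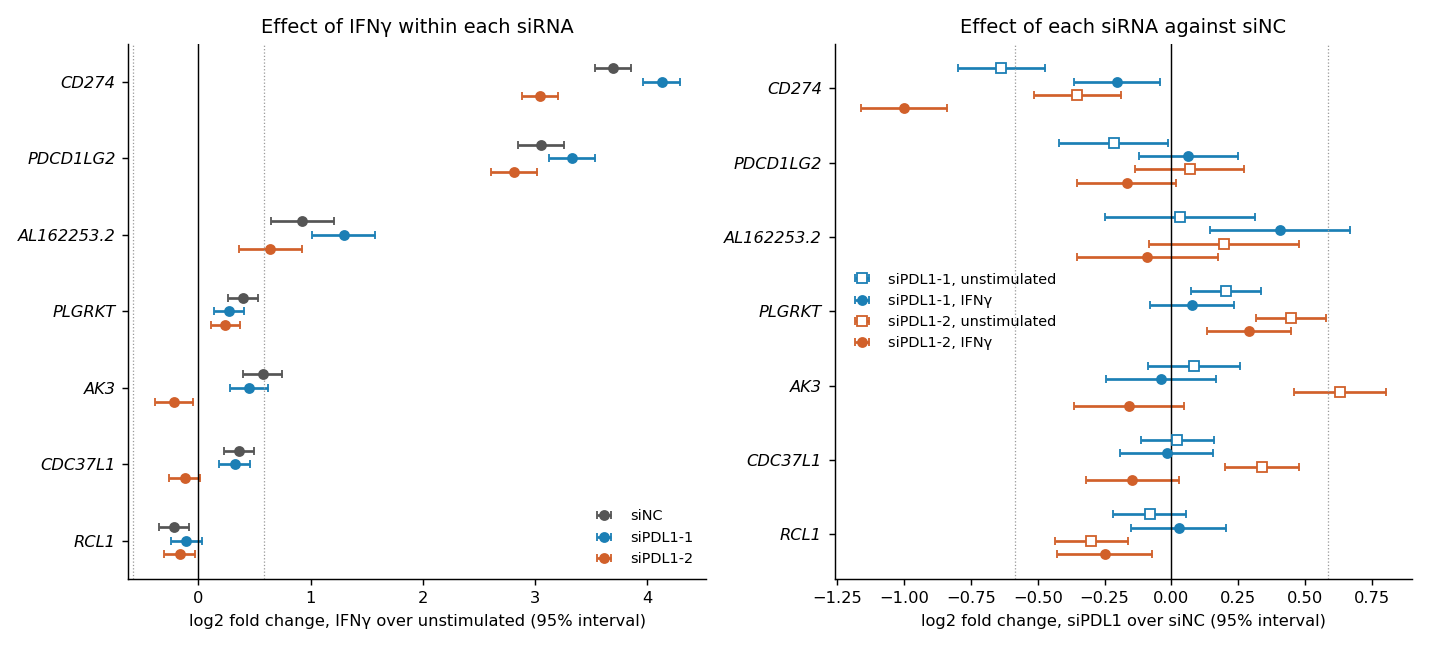
Log2 fold changes of the 7 genes with 95% intervals from limma, on the left for IFNγ over unstimulated cells within each siRNA group and on the right for each siRNA over siNC, where open squares are unstimulated cells and filled circles stimulated cells. Dotted lines mark the fold change of 1.5. On the left, *CD274* lies between 3.05 and 4.13 in all 3 siRNA groups. On the right, *CD274* is lowest for siPDL1-2 after IFNγ (-1.001) and *AK3* is highest for siPDL1-2 in unstimulated cells (0.63).

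The siRNAs were next compared with siNC in unstimulated cells, where both comparisons used the same siNC libraries. *CD274* was lower with each siRNA, and it was the sole gene of the 7 called with siPDL1-1, where 4.00% of all genes were called. With siPDL1-2, the gene called was instead *AK3*, which was higher, against 6.17% of all genes.

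For siPDL1-1, mean *CD274* without stimulation was 2.70 ± 0.0436 CPM, 56.7% of the siNC mean, and the log2 fold change was -0.64 (95% interval -0.80 to -0.47, FDR = 1.76e-05). It ranked 186th by fold change among the 261 genes that this siRNA lowered. For siPDL1-2, the mean was 3.51 ± 0.0860 CPM, 73.8% of the siNC mean, with a log2 fold change of -0.35 (95% interval -0.51 to -0.19, FDR = 0.00183) that was below the fold change threshold. For siPDL1-1 against siPDL1-2, the *CD274* difference was -0.29 on the log2 scale (FDR = 0.00865), below the fold change threshold. In that comparison limma called 0 of the 7 genes, against 4.35% of all genes, and both edgeR and DESeq2 also called 0. Of the 7, 6 had an unadjusted p under 0.05, and 6 had an FDR under 0.05, where 36.7% of all genes had such an FDR.

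*PDCD1LG2*, the other ligand, was not called with either siRNA in unstimulated cells. Its log2 fold changes were -0.22 with siPDL1-1 (95% interval -0.42 to -0.01, FDR = 0.108) and 0.07 with siPDL1-2 (95% interval -0.14 to 0.27, FDR = 0.607). *AL162253.2* had values of 0.03 (95% interval -0.25 to 0.31) and 0.20 (95% interval -0.09 to 0.48), and its siNC libraries overlapped those of both siRNAs.

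Among the neighbours, *AK3* averaged 99.6 ± 2.68 CPM in siNC cells against 155 ± 6.40 CPM in siPDL1-2 cells (SD, n = 2 each), and the difference on the log2 scale was 0.63 (95% interval 0.46 to 0.80, FDR = 5.28e-05). Both siPDL1-2 libraries were above both siNC and both siPDL1-1 libraries. *PLGRKT* (0.45, FDR = 4.72e-05) and *CDC37L1* (0.34, FDR = 6.43e-04) were also higher with siPDL1-2, and *RCL1* was lower (-0.30, FDR = 0.00168), each with an FDR under 0.01 but below the fold change threshold. *CDC37L1* was at 24.5 and 24.0 CPM with siNC and at 30.5 and 31.5 CPM with siPDL1-2. With siPDL1-1, none of these 4 genes had an FDR under 0.01, the largest value being 0.20 for *PLGRKT* (FDR = 0.0219).

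After IFNγ, each siRNA was again set against the shared siNC libraries. *CD274* was the only gene called among the 7, and only with siPDL1-2. For siPDL1-2, the mean of 36.3 ± 1.76 CPM was 49.3% of the 73.6 ± 3.43 CPM with siNC (SD, n = 2 each), and the difference on the log2 scale was -1.001 (95% interval -1.16 to -0.84, FDR = 2.79e-05). This placed it 21st by fold change among the 190 genes lowered by this siRNA, and 2.91% of all genes were called in this comparison. For siPDL1-1, the mean of 63.8 ± 4.04 CPM was 86.7% of that with siNC, and limma called 0 of the 7 genes, against 5.52% of all genes. Of the 7, 2 had an unadjusted p under 0.05, and 1 had an FDR under 0.05, where 28.0% of all genes had such an FDR. Both edgeR and DESeq2 likewise called 0. *CD274* had a log2 fold change of -0.20 there (95% interval -0.37 to -0.04, FDR = 0.0604). Set directly against siPDL1-2, *CD274* was higher with siPDL1-1 by 0.80 on the log2 scale (95% interval 0.64 to 0.96, FDR = 5.03e-05), the only call among the 7 in a comparison that called 2.11% of all genes.

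None of the other 6 genes was called for either siRNA after IFNγ. *PDCD1LG2* had log2 fold changes of 0.06 with siPDL1-1 (95% interval -0.12 to 0.25) and -0.17 with siPDL1-2 (95% interval -0.35 to 0.02). *AL162253.2* was at 5.45 and 6.12 CPM with siPDL1-1, above both siNC libraries (3.95 and 4.27 CPM), with a log2 fold change of 0.41 that was not called (FDR = 0.0268). With siPDL1-2 it was at 4.05 and 3.57 CPM, overlapping siNC (-0.09, FDR = 0.633). *PLGRKT* (0.29, FDR = 0.0154) and *RCL1* (-0.25, FDR = 0.0487) with siPDL1-2 had the signs seen without stimulation but an FDR above 0.01.

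Whether an siRNA effect depended on IFNγ was tested as the difference between its effect in stimulated and in unstimulated cells. For siPDL1-2, *CD274* and *AK3* were called, both downward, against 7.62% of all genes. The *CD274* difference was -0.65 (95% interval -0.88 to -0.42, FDR = 5.37e-04), since the siPDL1-2 effect was -0.35 without stimulation and -1.001 after IFNγ. It was smaller with the tests on recovered reads, at -0.55 with edgeR (FDR = 0.00634) and -0.54 with DESeq2 (FDR = 0.0132), neither of which called it. The *AK3* difference was -0.79 (95% interval -1.03 to -0.55, FDR = 3.44e-04). *CDC37L1* had a difference of -0.49 (FDR = 0.00121), under the fold change threshold. *AK3* and *CDC37L1* were thus higher with siPDL1-2 in unstimulated cells and at -0.16 (FDR = 0.249) and -0.15 (FDR = 0.209) after IFNγ.

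For siPDL1-1, the difference for *CD274* had the opposite sign, 0.43 (95% interval 0.20 to 0.66), and was not called (FDR = 0.0399). It ranged from 0.37 to 0.66 over the alternatives. The pseudocount shrinks effects at the few CPM of unstimulated cells. As shares of the siNC mean CPM, *CD274* with siPDL1-1 was at 56.7% without stimulation and 86.7% after IFNγ. The shares with siPDL1-2 were 73.8% and 49.3%. For the dependence of the siPDL1-1 effect, limma called 0 of the 7 genes, against 0.968% of all genes, and edgeR and DESeq2 also called 0. Of the 7, 1 had both an unadjusted p and an FDR under 0.05, where 3.18% of all genes had an FDR under 0.05. *PDCD1LG2* had differences of 0.28 (95% interval -0.01 to 0.57) for siPDL1-1 and -0.24 (95% interval -0.53 to 0.05) for siPDL1-2.

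With an FDR under 0.05 and no fold change threshold, more of the 7 genes were called, as were many more genes of the table. For IFNγ, the counts were 7 of 7 with siNC, against 38.3% of all genes, 6 with siPDL1-1, against 33.9%, and 4 with siPDL1-2, against 28.9%. Without stimulation, they were 2 for siPDL1-1 against siNC (28.9% of all genes), 5 for siPDL1-2 against siNC (40.8%) and 6 between the siRNAs (36.7%). After IFNγ, they were 1 for siPDL1-1 (28.0%), 3 for siPDL1-2 (21.9%) and 2 between the siRNAs (11.3%). For the dependence on IFNγ, they were 1 for siPDL1-1 (3.18%) and 3 for siPDL1-2 (29.6%).

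Per kilobase of annotated exon, the order of the 7 genes changed with IFNγ. In unstimulated siNC cells the order of mean level was *AK3* (22.7 CPM per kb), *PLGRKT* (18.7), *CDC37L1* (6.15), *RCL1* (5.24), *CD274* (1.16), *PDCD1LG2* (0.604) and *AL162253.2* (0.558). Only the last 2 overlapped between libraries. After IFNγ, *CD274* came next at 17.9 CPM per kb after *AK3* (33.8) and *PLGRKT* (24.8). *PDCD1LG2* (8.003) and *CDC37L1* (7.98) followed and overlapped each other, and *RCL1* (4.48) and *AL162253.2* (1.35) came last. In stimulated siPDL1-2 cells *PLGRKT* (30.5 CPM per kb) and *AK3* (30.3) overlapped at the top and *CD274* followed at 8.83 CPM per kb.

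Within a library, the ratio of *CD274* to *PDCD1LG2* shows the targeted ligand against its untargeted neighbour. In unstimulated libraries *PDCD1LG2* rested on 28 to 69 reads, which limits the precision of the ratio. Its own mean with siPDL1-1 was 76.5% of the siNC mean there, so the ratio does not follow *CD274* alone. In CPM, this ratio was 3.36 and 3.13 in unstimulated siNC cells and 3.59 and 3.98 after IFNγ. With siPDL1-1 it was 2.49 and 2.32 before and 2.97 and 3.30 after, and with siPDL1-2 it was 2.16 and 2.26 before and 2.06 and 2.15 after. All 8 siPDL1 libraries lay below the siNC libraries of the same stimulation. The ratio in siPDL1-2 cells was 2.26 or less with or without IFNγ. In stimulated siPDL1-1 cells it was higher, at 2.97 and 3.30, but below the 3.59 and 3.98 of stimulated siNC cells.

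The genes around the locus were taken as every row within 1 Mb of *CD274*, which gave 25 further genes that are reported. Of these, 15 were tested in the 12-library fit, with a median log2 fold change for IFNγ in siNC cells of 0.14 against 0.001 over all genes tested. With limma, 0 of the 15 were called there, against 8.12% of all genes. Of the 15, 8 had an unadjusted p under 0.05, a looser threshold than an FDR under 0.05. Those with an FDR under 0.05 were *SLC1A1* (FDR = 0.0018), *INSL6* (0.0106), *RIC1* (0.00187) and *RANBP6* (0.00133). Of all genes, 38.3% had an FDR under 0.05. DESeq2 called 0, and edgeR called *INSL6*, which averaged 0.172 CPM and is named after its values were seen. The highest value with limma among the 15 was 0.51, for *INSL6* (FDR = 0.0106), against 3.70 for *CD274* and 3.05 for *PDCD1LG2*. In siNC cells *INSL6* was at 0 and 0.0506 CPM without stimulation and at 0.393 and 0.519 CPM after IFNγ. At such levels the pseudocount keeps log2 fold changes small, so 0.51 does not give its change as a ratio of CPM. *RIC1*, which begins 178.5 kb downstream of the start of *CD274*, was at 59.2 and 60.6 CPM without stimulation and 70.9 and 69.6 CPM after IFNγ in siNC cells. *SLC1A1*, a glutamate transporter gene at the far upstream end, was higher with siPDL1-1 (0.62, FDR = 1.76e-05) and with siPDL1-2 (0.67, FDR = 6.66e-06) in unstimulated cells. It was the only gene of the 15 called in these comparisons, against 4.00% and 6.17% of all genes. It was at 17.5 and 16.6 CPM with siNC, 26.2 and 27.2 CPM with siPDL1-1 and 28.1 and 27.2 CPM with siPDL1-2. The only other call was *RLN2*, at 0.436 CPM on average, in the dependence of the siPDL1-2 effect on IFNγ (-0.64, FDR = 0.00727), which edgeR also called and DESeq2 did not. In that comparison 7.62% of all genes were called.

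**Figure D3:**
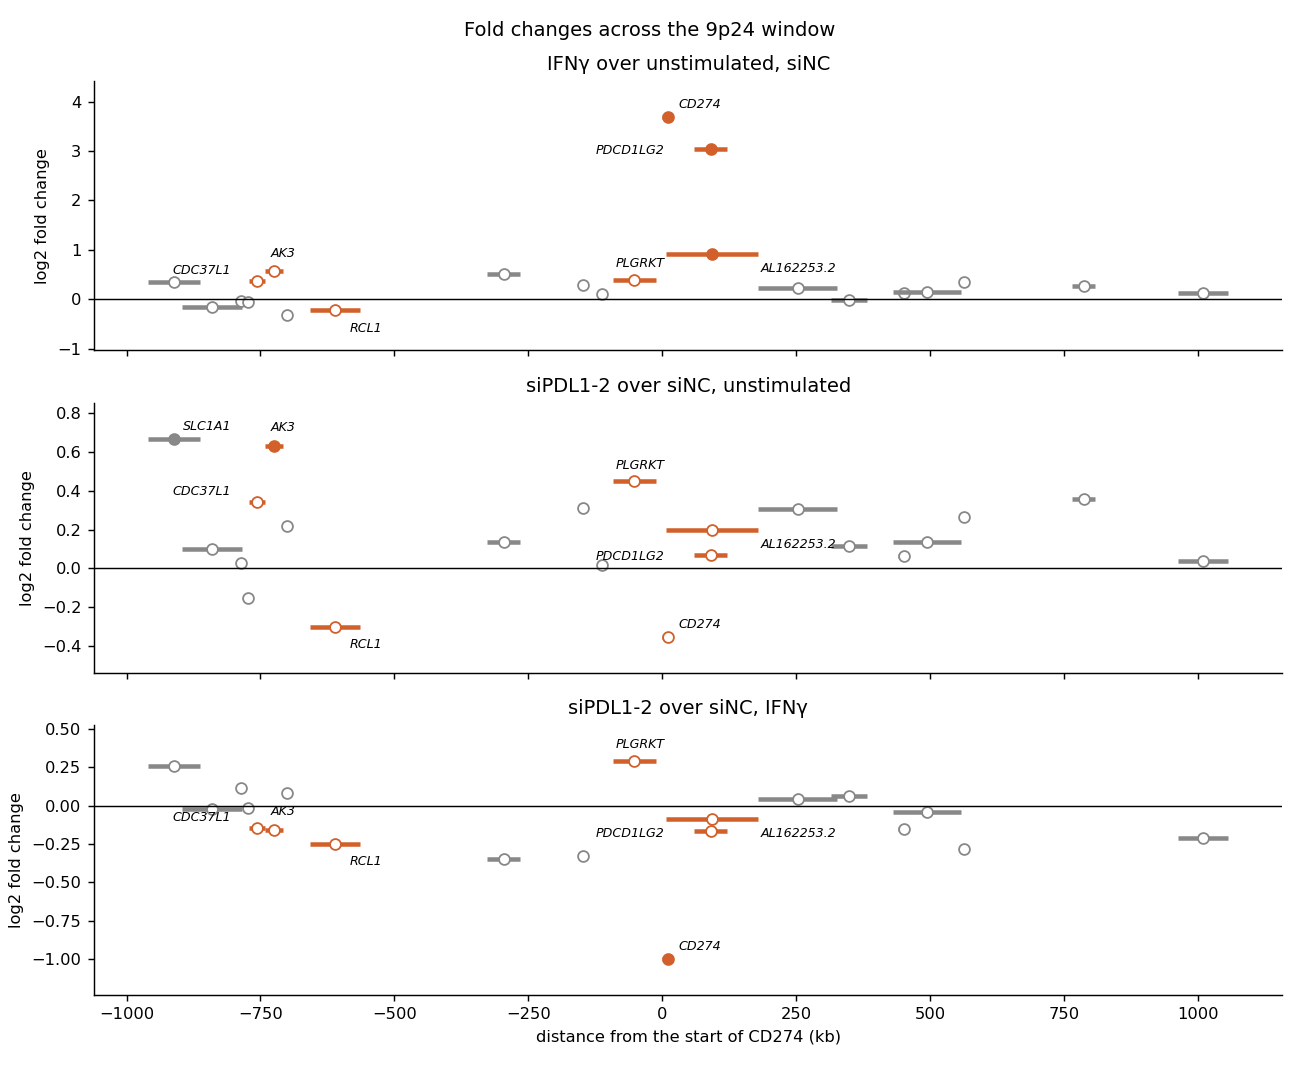
Log2 fold changes of the tested genes within 1 Mb of *CD274*, against distance from its start in kb, for IFNγ in siNC cells and for siPDL1-2 over siNC without and with IFNγ. Each bar spans a gene with a point at its middle, orange for the 7 genes and gray for the others, and filled points passed both thresholds. In the top panel *CD274*, *PDCD1LG2* and *AL162253.2* are the filled points, the other genes lying at 0.57 or less, and in the bottom panel *CD274* alone is far below 0.

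A list of 13 genes known to act on PD-L1 transcription was described next. IFNγ raised *IRF1*, *IRF2*, *SOCS1* and *SOCS3* in each siRNA group, 4 of 13 tested, beside 8.12%, 6.87% and 5.27% of all genes called in either direction with siNC, siPDL1-1 and siPDL1-2, and limma, edgeR and DESeq2 called these genes alike. In siNC cells the log2 fold changes were 4.85 for *IRF1*, 1.42 for *IRF2*, 2.61 for *SOCS1* and 0.81 for *SOCS3*, with FDR values of 1.05e-07 or less. The SOCS proteins inhibit the pathway. The median over the list was 0.17 in siNC cells, against 0.001 over all genes tested.

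After IFNγ, *IRF1* was at 549.5 and 531 CPM with siNC, 361 and 337 CPM with siPDL1-1 and 369 and 396 CPM with siPDL1-2. All 4 knockdown libraries lay below both siNC libraries, with log2 fold changes of -0.63 for siPDL1-1 (FDR = 2.83e-05, called) and -0.50 for siPDL1-2 (FDR = 3.82e-04, below the fold change threshold). Between the siRNAs, the *IRF1* difference after IFNγ was -0.13 (FDR = 0.182), whereas that of *CD274* was 0.80.

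*SOCS1* was at 8.18 and 7.14 CPM in stimulated siNC cells and at 26.6 and 26.4 CPM in stimulated siPDL1-1 cells, a log2 fold change of 1.67 (FDR = 1.10e-06). With siPDL1-2 it was at 7.86 and 8.79 CPM, overlapping siNC. Its dependence of the siPDL1-1 effect on IFNγ was called by limma (1.46, FDR = 5.54e-05) but not by edgeR or DESeq2. *MYC* was lower with each siRNA, both without IFNγ (-0.78 and -1.12 for siPDL1-1 and siPDL1-2, FDR = 2.40e-05 and 6.45e-07) and with it (-0.59 and -0.61, FDR = 0.00231 and 0.00333). Of the receptor and kinase genes, *IFNGR1*, *IFNGR2* and *JAK1* were not called in any comparison. *IFNGR1* was under the fold change threshold at 0.54 for siPDL1-2 without stimulation (FDR = 3.05e-06), -0.40 for IFNγ in siPDL1-2 cells (FDR = 6.89e-05) and -0.57 for the dependence of the siPDL1-2 effect on IFNγ (FDR = 1.42e-04).

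**Figure D4:**
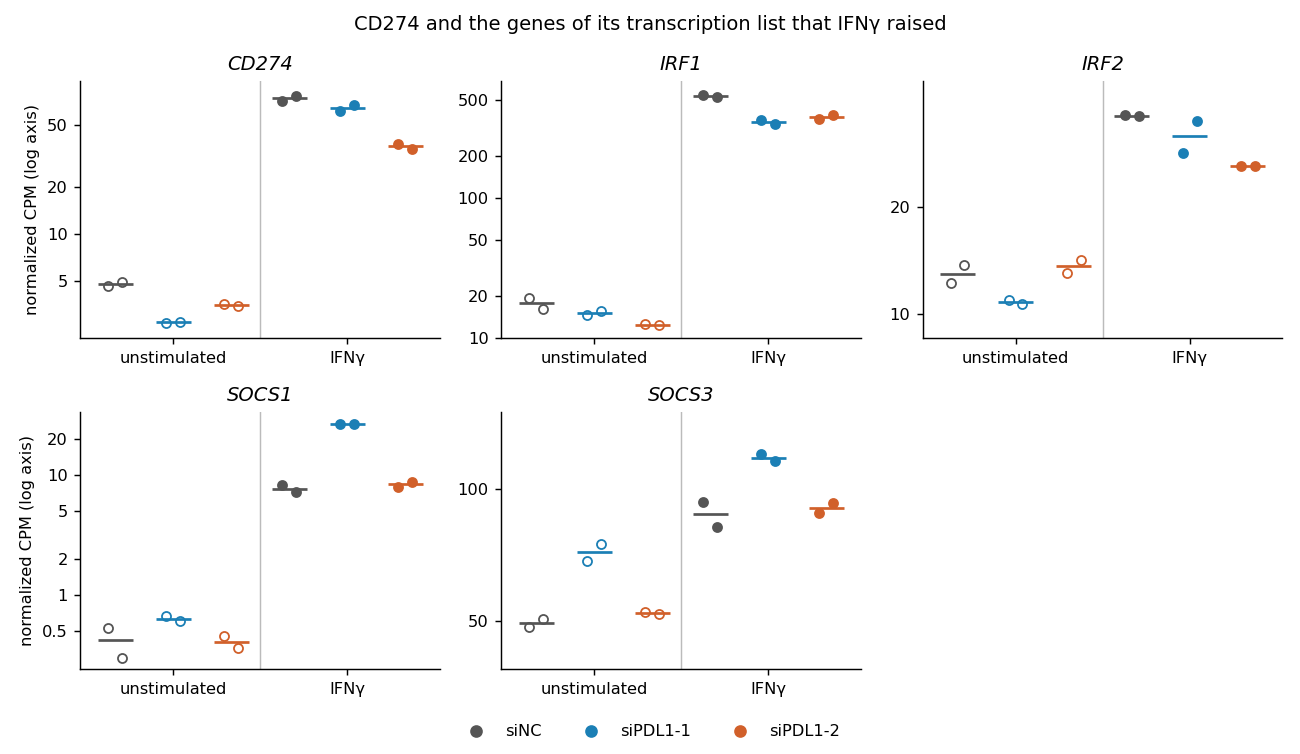
Normalized CPM on log axes of *CD274* and of the 4 genes of the transcription list that IFNγ raised, with 1 point per library, a line at the group mean, open points for unstimulated and filled points for stimulated cells. *SOCS1* reaches 26.4 and 26.6 CPM in stimulated siPDL1-1 cells, above the 7.14 to 8.79 CPM of the other stimulated groups.

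The remaining genes around the PD-1 ligands were 10 listed receptors, partners and relatives, of which 6 were expressed enough to be tested. *PDCD1*, which encodes PD-1, and *CD80* were at or under 0.0979 CPM in every library. *CMTM6*, which protects the PD-L1 protein from degradation, was at 73.9 and 71.7 CPM with siNC and at 118 and 115.5 CPM with siPDL1-2 in unstimulated cells (0.68, FDR = 7.48e-07). After IFNγ it was at 104.1 and 110.0 CPM with siNC and at 114 and 113 CPM with siPDL1-2 (0.09, FDR = 0.431). The dependence on IFNγ was -0.59 with limma (FDR = 1.88e-04), without a call by edgeR or DESeq2. *VTCN1*, which encodes the related B7-H4, fell with IFNγ in siNC cells from 1.86 and 2.23 CPM to 0.524 and 0.436 CPM (-1.04, FDR = 4.01e-05) and in siPDL1-2 cells (-0.96, FDR = 1.53e-04), and was not called in siPDL1-1 cells (-0.43, FDR = 0.0312). Without stimulation it was lower with siPDL1-1 than with siNC (-0.81, FDR = 5.53e-04), a call that DESeq2 did not make, and than with siPDL1-2 (-0.61, FDR = 0.00397), which neither edgeR nor DESeq2 called. Unlike the PD-1 ligands, *CD276*, which encodes B7-H3, was between 71.2 and 94.8 CPM in all 12 libraries and was not called in any comparison.

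Of 9 genes for PD-L1 protein turnover, 8 were tested. In none of the 11 comparisons did limma, edgeR or DESeq2 call any of them, where limma called between 0.968% and 8.12% of all genes. With 8 genes, 0 calls lie near those shares. Between 1 and 7 of the 8 had an unadjusted p under 0.05 with limma. An FDR under 0.05 is stricter and was met by 3.18% to 40.8% of all genes, so these shares cannot be set against that count. *SPOP*, an adaptor for ubiquitination of PD-L1, and *COPS5*, a deubiquitinating subunit, were between 36.1 and 46.3 CPM and between 47.2 and 57.6 CPM.

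The genes with the pattern most like that of *CD274* were sought among 14275 genes averaging at least 1 CPM, by the root mean square difference between centered log2 group means over the 6 groups. The nearest were *GBP3* (0.27), *CTSS* (0.28), *UBD* (0.29), *ETV7* (0.31) and *UBE2L6* (0.32). *GBP3* averaged 13.6 CPM without and 218 CPM with IFNγ in siPDL1-1 cells, and 18.9 CPM without and 189 CPM with it in siPDL1-2 cells. *PDCD1LG2* was the 8th nearest (0.40), *AL162253.2* the 306th, and the remaining 4 genes were at rank 1905 or beyond. The genes nearest to *PDCD1LG2* were *HLA-E* (0.13), *TNFRSF14* (0.16), *PSMB8* (0.16), *IL15RA* (0.18) and *CASP1* (0.21), and *CD274* was the 43rd. The measure is a description over the same 12 libraries and includes the pseudocount, and the CPM ratios of these genes differ. *UBD*, for instance, was listed at 0 in every unstimulated group and averaged 13.6 CPM in stimulated siNC cells.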

How the data were processed

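Cells were transfected for 48 h and stimulated for 24 h, and mRNA libraries were sequenced. Trimming, mapping to GRCh38 (Ensembl genes), counting on both strands and normalization were done by the authors with CLC Genomics Workbench. The deposited signal is this normalized CPM for each gene and library. Column sums differ between libraries, so it is not plain CPM. Dividing by the step that 1 read is worth gave whole reads for 100% of values (tolerance 0.05), and these recovered reads served the count tests.

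Values were tested as log2(CPM + 1) with limma 3.58.1 (trend and robust estimates, R 4.3.3) on genes kept by edgeR 4.0.16's filterByExpr (minimum count 10, minimum total 15), with Benjamini-Hochberg adjustment over all genes tested. All 12 libraries were fitted as 6 groups (17982 genes), and comparisons between siRNAs after IFNγ used the 6 stimulated libraries (17148 genes). There were 11 comparisons. The members and the gene lists were chosen with earlier results of these data known. Named genes are the 7 members, called genes of the lists with at most 4 others per list, genes of the window that were called or averaged at least 1 CPM, overlapping genes, and the 5 nearest in pattern.

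Alternatives were edgeR's quasi-likelihood test and DESeq2 1.42.0 on recovered reads, DESeq2's size factors, no filter, a pseudocount of 0.1, an FDR under 0.05 without a fold change threshold, replicate number as a block, other libraries in the fit, and leaving out each library. Replicates were checked for duplication. The scripts were tested on simulated data. Values for 1 gene of the window and 1 gene of the lists are not reported here. Precision is limited by 2 libraries a group and, for genes at a few CPM, by depth. The extraction kit and the instrument differ between the labels and the methods.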

Additional observations from a re-analysis of the deposited data

Results flagged for a closer look

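The effect of siPDL1-2 against siNC differed between stimulated and unstimulated cells for *CD274* and *AK3*, by an interaction term over all 12 libraries. For *CD274*, which encodes PD-L1, the difference was -0.65 on the log2 scale (standard error 0.108, FDR = 5.37e-04 from limma). It was not called by edgeR (-0.55, FDR = 0.00634) or by DESeq2 (-0.54, FDR = 0.0132). The CPM was 3.57 and 3.45 against 4.60 and 4.91 without IFNγ, and 37.5 and 35.0 against 71.2 and 76.0 with it. For *AK3*, which encodes a mitochondrial adenylate kinase, the difference was -0.79 (standard error 0.112, FDR = 3.44e-04 from limma). Its CPM was 150 and 159 against 102 and 97.8 without IFNγ, and 136 and 130 against 149 and 149 with it.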

How the results depend on the processing

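Of 1080 repeats, 1023 were counted as unchanged. For a gene this meant the same direction and the same side of the thresholds. For a count of members called it meant an equal count or one within 1.5-fold, so a single member could still cross a threshold. The calls of *CD274* and *PDCD1LG2* under IFNγ, and of *CD274* for siPDL1-1 without stimulation, for siPDL1-2 after IFNγ and between the siRNAs after IFNγ, held under every alternative run. With an FDR under 0.05 and no fold change threshold, the members called were 7 (IFNγ in siNC, where 38.3% of all genes were called), 6 and 4 (IFNγ in siPDL1-1, 33.9%, and siPDL1-2, 28.9%), 2 and 5 (siPDL1-1 and siPDL1-2 against siNC, unstimulated), 6 (between siRNAs, unstimulated), 1 and 3 (siPDL1-1 and siPDL1-2 against siNC after IFNγ), 2 (between siRNAs after IFNγ) and 1 and 3 (dependence of the siPDL1-1 and siPDL1-2 effects). In the other comparisons 3.18% to 40.8% of all genes were called. *CD274* was then called for siPDL1-2 without stimulation (-0.35), between siRNAs without stimulation (-0.29) and for the dependence of the siPDL1-1 effect (0.43). For the dependence of the siPDL1-2 effect, edgeR and DESeq2 called 1 gene, *AK3*, and *CD274* was -0.55 (FDR = 0.00634) and -0.54 (FDR = 0.0132). The cause was not tested. Leaving out 1 library, the count between siRNAs without stimulation ranged from 0 to 1, the 1 being *AK3* without siPDL1-2 replicate 1 (-0.59, FDR = 0.00157).

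Signs turned only for the following values, none of which was called with all libraries. For siPDL1-1 against siNC without stimulation, *CDC37L1* was -0.011 with edgeR and -0.0023 with DESeq2's size factors, and *AL162253.2* ranged from -0.090 to 0.156 when 1 library was left out, below 0 without siNC replicate 2 or siPDL1-1 replicate 1. After IFNγ the corresponding ranges against siNC were -0.203 to 0.13 for *AK3*, -0.060 to 0.023 for *CDC37L1* and -0.013 to 0.070 for *RCL1*, with the sign turned without stimulated siPDL1-1 replicate 1 and, for *CDC37L1*, also without stimulated siNC replicate 2. Between the siRNAs after IFNγ, *AK3* ranged from -0.044 to 0.285, below 0 without stimulated siPDL1-1 replicate 2. For the dependence of the siPDL1-1 effect, *AK3* ranged from -0.286 to 0.043, above 0 without stimulated siPDL1-1 replicate 1. *CDC37L1* ranged from -0.082 to 0.0015, above 0 without that library or stimulated siNC replicate 2. The cause was not tested.

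Libraries with the same number deviated from their group means with correlations from -0.187 to 0.252 over 15 pairs of groups, 2 of them above 0.1, so the numbers were not used as pairs. With replicate number as a block, IFNγ called 1467 genes in siNC cells instead of 1460, and the call of no member changed. Size factors moved the median of all genes by less than 0.1 in each comparison.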
